A study of Homo sapiens with 6 samples.

Results

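The CDK inhibitors, the D cyclins and MYC set the pace at which a cell leaves G1 and begins to copy its DNA. They were followed here in ES-2, an established human ovarian cancer cell line, through 23 probe sets of 9 genes out of the 49293 probe sets tested. The rule named 10 genes (CDKN1A, CDKN1B, CDKN1C, CDKN2A, CDKN2B, CDKN2C, CCND1, CCND2, CCND3 and MYC) and took every probe set whose platform annotation gives one of them as its single gene. No probe set was assigned to CDKN2C in this way, so it is not analysed here. Total RNA was hybridised to 6 Affymetrix PrimeView arrays, 1-colour arrays on which a probe set is a group of oligonucleotides read as 1 value. Per the titles, 3 arrays hold ES-2 cells overexpressing CADM1, an immunoglobulin-type adhesion molecule studied as a tumour suppressor, and 3 hold ES-2 cells, which the series calls mock controls. The source fields of 2 arrays titled overexpression read CADM2 and CADM3 in place of CADM1. All 6 samples were cells in logarithmic growth. The vector, its promoter, the time since its introduction and whether clones or pools were used are not stated in the labels. Nor do these say whether each array had its own culture. A p-value here therefore covers the spread among arrays, which could be purely technical.

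D cyclins bind and activate the kinases CDK4 and CDK6, which phosphorylate the retinoblastoma protein and so release E2F transcription factors. The INK4 inhibitors bind CDK4 and CDK6 themselves, and those named by the rule are p16 from CDKN2A, p15 from CDKN2B and p18 from CDKN2C. The Cip/Kip inhibitors (p21 from CDKN1A, p27 from CDKN1B, p57 from CDKN1C) bind cyclin-kinase complexes and block above all CDK2. MYC is a transcription factor that, paired with MAX, drives growth and ribosome genes. Gain of MYC and loss of INK4 inhibitors are recurrent changes in cancers, ovarian cancer among them.

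CADM1 went against the labels by its brightest probe set, and directions are therefore given by label throughout. Its brightest probe set, 11728805_a_at, read 8.14, 8.10 and 8.18 on the arrays labelled overexpression and 10.24, 10.29 and 10.23 on those labelled control, which puts the log2 fold change at -2.12 ± 0.0312 (SE) with limma's adjusted p = 1.65e-14. None of its other 5 probe sets was called. Among these, 11757557_s_at was higher under the overexpression label without overlap, at 0.17 (95% interval 0.07 to 0.27, limma, adjusted p = 0.0975). The rest overlapped between the groups, at 0.04, 0.04, -0.01 and -0.06. The labels do not say which of the 6, if any, can read the introduced sequence. The arrays had medians of 6.18 to 6.20 (log2), and their 15 pairwise correlations were 0.9981 to 0.9988. Keratins 8 and 18 averaged 12.98 and 13.26 and vimentin 13.01. EPCAM averaged 2.95, PAX8 4.65 and WT1 4.24, and the blood marker PTPRC 2.96, each under the median of 6.19 over all probe sets. Among 23 markers of epithelial, mesenchymal, blood, endothelial and fibroblast cells, CDH5, an endothelial cadherin, was lower in the arrays labelled overexpression (log2 fold change -0.27) and was the 1 marker called; its part in the results below was not tested.

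Sequence windows around annotated gene starts are shown for the INK4 pair on chromosome 9 and for CDKN1A. They were picked because CDKN2B and CDKN1A were both called higher while CDKN2A, the neighbour of CDKN2B, was not called. CDKN2A has 2 windows, since it has alternative first exons, one for p14ARF, which restrains MDM2, and one for p16. Each window runs from 250 bases before to 50 after a start, 5′ to 3′ on the strand of the gene, from RefSeq on GRCh38.p14. Capitals mark the GC box GGGCGG or its reverse complement CCGCCC. The windows are chr9:22009256-22009555 (minus strand) for CDKN2B, chr9:21995275-21995574 (minus strand) and chr9:21974808-21975107 (minus strand) for CDKN2A, and chr6:36678464-36678763 (plus strand) for CDKN1A.

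CDKN2B: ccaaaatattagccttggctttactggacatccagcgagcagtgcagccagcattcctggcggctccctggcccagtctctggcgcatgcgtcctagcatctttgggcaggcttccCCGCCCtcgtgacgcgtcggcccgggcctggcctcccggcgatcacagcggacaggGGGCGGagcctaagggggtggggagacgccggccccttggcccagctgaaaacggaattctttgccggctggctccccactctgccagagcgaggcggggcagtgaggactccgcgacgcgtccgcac
CDKN2A, upstream start: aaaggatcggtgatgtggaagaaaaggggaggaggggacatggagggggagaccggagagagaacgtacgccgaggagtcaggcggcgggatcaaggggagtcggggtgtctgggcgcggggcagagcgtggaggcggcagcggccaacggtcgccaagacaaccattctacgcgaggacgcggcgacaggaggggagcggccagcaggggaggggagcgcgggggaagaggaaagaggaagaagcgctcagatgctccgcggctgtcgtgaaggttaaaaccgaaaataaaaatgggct
CDKN2A, downstream start: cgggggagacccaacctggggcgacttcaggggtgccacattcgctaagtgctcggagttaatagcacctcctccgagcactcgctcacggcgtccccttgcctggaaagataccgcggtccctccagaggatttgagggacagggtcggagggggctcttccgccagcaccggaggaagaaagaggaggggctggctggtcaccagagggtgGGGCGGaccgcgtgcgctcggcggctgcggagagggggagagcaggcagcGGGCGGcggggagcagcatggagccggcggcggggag
CDKN1A: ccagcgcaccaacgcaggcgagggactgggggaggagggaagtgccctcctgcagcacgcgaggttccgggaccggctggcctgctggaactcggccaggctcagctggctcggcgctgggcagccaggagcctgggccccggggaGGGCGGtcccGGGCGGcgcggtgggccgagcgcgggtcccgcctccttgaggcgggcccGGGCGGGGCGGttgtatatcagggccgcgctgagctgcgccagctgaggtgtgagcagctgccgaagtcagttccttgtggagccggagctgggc

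The GC box occurred 2 times in the CDKN2B window, at 134 and 78 bases before the start, and 4 times in the CDKN1A window, at 104, 94, 45 and 40 bases before it. It was present 2 times in the downstream CDKN2A window and in 0 places in the upstream one. Of the 35116 windows in the table, 45.0% hold it, so its presence is common. The same windows were searched on both strands for an E-box (CACGTG, in 7.26% of all windows), a TATA box (TATAAA, 11.5%), E2F-type sites (TTGGCGC, 3.04%, and TTCCCGC, 6.55%), a CRE core (TGACGT, 7.98%), an AP-1 site (TGAGTCA, whose reverse complement is TGACTCA, 4.95%) and a SMAD site (GTCTAGA, 1.44%). None of these letters is in the 4 windows printed. They were 67.3%, 63.3%, 69.0% and 74.3% G and C in the order printed, against a median of 58.7% over all windows. In all, 6 of the 10 genes matched the table, with 11 windows. Not printed are those of CCND3, also called higher, with 5, 4 and 0 GC boxes, and that of CDKN1B, with 1. Also not printed are those of CDKN2C, which between them hold the E-box, TTCCCGC and the CRE core.

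Of the 23 probe sets, 5 were called higher under the overexpression label and 4 lower, at an adjusted p under 0.05 from limma over all 49293 probe sets. That is 39.1% of them, where 1.49% of all probe sets were called, 0.605% higher and 0.887% lower. The genes had been chosen with earlier results of these data known, so the 2 shares are set side by side as a description. The changes were small, with a median absolute log2 fold change of 0.10 over the 23 probe sets against 0.05 over all probe sets, and the largest was 0.31. In bulk RNA, a lower level in each cell and fewer cells holding a transcript cannot be told apart. The groups did not overlap for 14 of the 23, against 17.4% of all probe sets. The genes were also counted with 1 probe set each, the brightest, with _x_at types passed over where the gene had another. So counted, 5 of the 9 genes were called (limma, adjusted over 18132 genes, 2.16% of which were called). CDKN2B, CDKN1A and CCND3 were higher, CCND1 and MYC lower. Over all genes 0.96% were called higher and 1.2% lower. These calls rest on limma's mean-variance trend, which uses the low spread of bright probe sets. Without it 0 of the 23 were called (0.0345% of all probe sets and 0.0607% of all genes were), the called ones having adjusted p from 0.155 to 0.335, and 11 had an unadjusted p under 0.05, as did 10.5% of all probe sets.

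**Figure D1:**
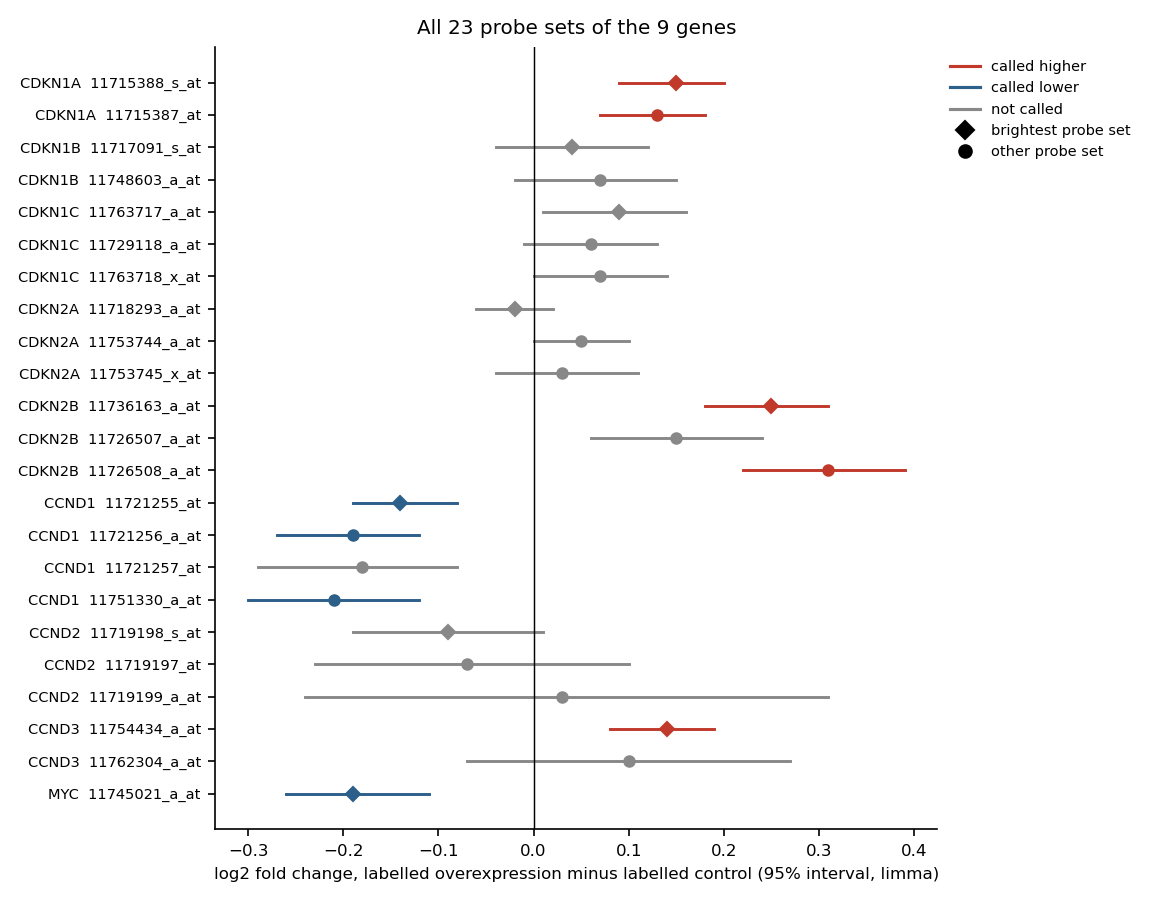
Log2 fold change (labelled overexpression minus labelled control, x axis) of each of the 23 probe sets (y axis), with its 95% interval from limma. Diamonds are the brightest probe set of a gene, with _x_at types passed over. Red is called higher, blue called lower and grey not called. CDKN2B holds the largest change, 0.31, and the called probe sets of CCND1 and MYC lie between -0.14 and -0.21.

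Among the INK4 inhibitors, CDKN2B was higher in the arrays labelled overexpression. Its protein p15 is known as a G1 brake that TGF-beta induces. The brightest probe set, 11736163_a_at, read 9.03, 9.10 and 9.10 on the arrays labelled overexpression and 8.85, 8.82 and 8.83 on those labelled control. The lowest array labelled overexpression stood above the highest labelled control. The log2 fold change was 0.25 ± 0.0312 (SE), or 1.19-fold (limma, adjusted p = 0.000985). A second probe set, 11726508_a_at, read 8.73, 8.82 and 8.79 against 8.48, 8.4 and 8.55, again without overlap. Its log2 fold change was 0.31 ± 0.0409 (SE), with limma's adjusted p = 0.00147. The dimmest, 11726507_a_at, read 7.39, 7.38 and 7.42 against 7.25, 7.26 and 7.23. It also kept the groups apart, but at 0.15, with a 95% interval of 0.06 to 0.24, it was not called (limma, adjusted p = 0.112). Both called probe sets stayed called when any 1 array was left out, with adjusted p from 0.00103 to 0.0137 (limma).

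CDKN2A, which lies beside CDKN2B and encodes p16 and p14ARF, was not called by any of its 3 probe sets. The brightest, 11718293_a_at, read 12.44, 12.49 and 12.48 on the arrays labelled overexpression and 12.50, 12.49 and 12.49 on those labelled control. The groups overlapped, and the difference of -0.02 had a 95% interval of -0.06 to 0.02. The others gave 0.05 (11753744_a_at) and 0.03 (11753745_x_at), with intervals reaching 0.10 and 0.11 at the upper end, so 2 of the 3 had the opposite sign to the brightest. Which of the 2 CDKN2A products each probe set reads is not stated. The array-by-array difference between CDKN2B and CDKN2A (log2, brightest probe sets) was -3.41, -3.39 and -3.39 on the arrays labelled overexpression and -3.65, -3.67 and -3.66 on those labelled control. It differed by 0.27 between the groups without overlap (exact permutation test, two-sided, p = 0.10, the smallest that 3 arrays against 3 allow; 0.167 after adjustment over 5 pairs).

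The other genes around this pair were read as well, chosen after the values of CDKN2B were seen. MTAP, an enzyme of methionine salvage whose gene neighbours CDKN2A, had 6 probe sets with log2 fold changes from -0.12 to 0.16, none called. Without overlap were 11726117_a_at, 11748840_a_at and 11751853_s_at, at -0.10, -0.12 and -0.12, and 11762346_at, the dimmest, at 0.16. The groups overlapped for 11726115_at and 11726116_at, at -0.07 and -0.06. The antisense transcript CDKN2B-AS1 averaged 4.15, read -0.09 and overlapped between the groups. CDKN2A-AS1 averaged 4.14 and read -0.04. DMRTA1, the next measured gene on the far side of CDKN2B, read 0.11 and was not called (95% interval -0.09 to 0.31). Among the measured genes of this stretch, the called probe sets were those of CDKN2B alone.

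Among the Cip/Kip inhibitors, CDKN1A was higher in the arrays labelled overexpression by both of its probe sets. Its product p21 is best known as a target of p53, and can be induced by other routes. The brighter probe set, 11715388_s_at, read 11.41, 11.45 and 11.50 on the arrays labelled overexpression and 11.34, 11.32 and 11.26 on those labelled control. The groups lay next to each other without overlap, and the log2 fold change was 0.15 ± 0.0268 (SE), or 1.11-fold (limma, adjusted p = 0.0125). The other, 11715387_at, read 9.98, 10.01 and 10.04 against 9.89, 9.90 and 9.86. This is a difference of 0.13 ± 0.0264 (SE), with limma's adjusted p = 0.0261. The brighter one stayed called when any 1 array was left out (limma, adjusted p 0.0269 to 0.0458). The other lost its call in each of these 6 fits (limma, adjusted p 0.0584 to 0.11).

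CDKN1B and CDKN1C were not called. CDKN1B, whose product p27 holds cells in quiescence, read 10.08, 10.12 and 10.03 on the arrays labelled overexpression and 10, 9.97 and 10.12 on those labelled control by its brightest probe set. The third control array reached the highest of the other group, and the difference of 0.04 had a 95% interval of -0.04 to 0.12. Its second probe set gave 0.07 (-0.02 to 0.15). CDKN1C, an imprinted gene whose product is p57, read 8.96, 8.95 and 9.06 against 8.89, 8.95 and 8.88 by 11763717_a_at. That probe set averaged 8.95, and 11763718_x_at, passed over for its type, averaged 9.05. All 3 CDKN1C probe sets kept the groups apart, though the nearest arrays of 11763717_a_at tie after rounding. All had positive values, 0.09, 0.06 and 0.07, with upper limits of 0.16, 0.13 and 0.14. None was called (limma, adjusted p 0.306, 0.479 and 0.347). The change of CDKN1A was not shown to differ from those of its relatives: CDKN1A minus CDKN1B overlapped between the groups, with a group difference of 0.10 (exact permutation test, two-sided, p = 0.6, adjusted p = 0.6), as did CDKN1A minus CDKN1C, at 0.06 (exact permutation test, p = 0.3, adjusted p = 0.375).

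**Figure D2:**
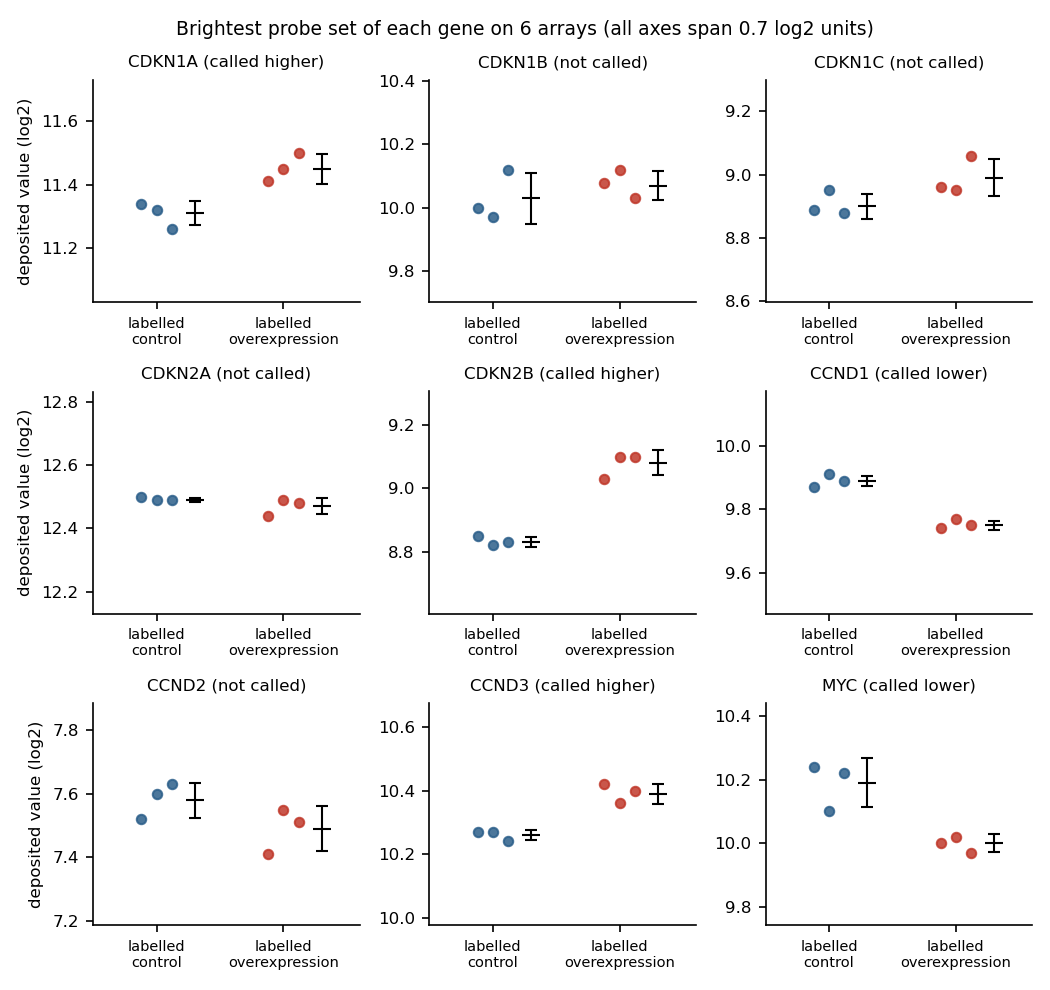
Deposited value (log2, y axis) of the brightest probe set of each of the 9 genes, with _x_at types passed over. The 3 arrays labelled control are blue and the 3 labelled overexpression red, with mean and SD in black beside each group. The height of every axis is the same. CDKN1A, CDKN2B and CCND3 sit higher and CCND1 and MYC lower on the arrays labelled overexpression, while CDKN1B, CDKN2A and CCND2 overlap between the groups and CDKN1C, not called, nearly does.

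The D cyclins did not move one way. CCND1, the D cyclin that growth factor and ERK signalling are known to induce, was lower in the arrays labelled overexpression. Its brightest probe set, 11721255_at, read 9.74, 9.77 and 9.75 on those arrays and 9.87, 9.91 and 9.89 on the arrays labelled control. The groups did not overlap, and the log2 fold change was -0.14 ± 0.025 (SE), or 1.10-fold, in favour of the control label (limma, adjusted p = 0.0128). All 4 CCND1 probe sets had this sign and no overlap. Of the other 3, 11721256_a_at gave -0.19 and 11751330_a_at gave -0.21, both called (limma, adjusted p = 0.0155 and 0.0186), and 11721257_at gave -0.18 and was not (limma, adjusted p = 0.0998). Without the first array labelled overexpression none of the 4 was called (limma, adjusted p 0.0946, 0.114 and 0.133 for the 3 called ones), and the same held without the first control array (0.0574, 0.0628 and 0.0828) and without the second (0.0645, 0.0571 and 0.0938). Without the second array labelled overexpression 11721256_a_at (0.0587) and 11751330_a_at (0.0525) were not called. Nor was the former without the third control array (0.0576). Adjusted over all genes instead, the brightest probe set was not called without the first array labelled overexpression (limma, adjusted p = 0.0691). It was still called without the first (0.0409) or second (0.0479) control array.

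CCND3 was higher in the arrays labelled overexpression by the brighter of its 2 probe sets. That probe set, 11754434_a_at, read 10.42, 10.36 and 10.40 on those arrays and 10.27, 10.27 and 10.24 on the arrays labelled control. The groups stood apart, with a log2 fold change of 0.14 ± 0.0248 (SE), or 1.10-fold (limma, adjusted p = 0.0129). The other, 11762304_a_at, was dim at a mean of 3.80 and gave 0.10 with an interval of -0.07 to 0.27. The call was lost without the first array labelled overexpression (limma, adjusted p = 0.106) and without the first control array (0.0667). Adjusted over all genes instead, it was lost without the first array labelled overexpression (0.0791) but not without the first control array (0.0488). It was also lost there with the mean of both probe sets (0.155). Over the alternatives for this probe set adjusted p ran from 0.00775 to 0.312.

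CCND2 was not called. Its brightest probe set read 7.41, 7.55 and 7.51 on the arrays labelled overexpression and 7.52, 7.60 and 7.63 on those labelled control, overlapping, with a difference of -0.09 (95% interval -0.19 to 0.01). Its dimmer probe sets gave -0.07 and 0.03, the latter, 11719199_a_at, with the opposite sign, a mean of 4.02 and an interval of -0.24 to 0.31. Within each array the CCND3 value stood above the CCND1 value by 0.68, 0.59 and 0.65 (log2) under the overexpression label and by 0.40, 0.36 and 0.35 under the control label. That difference moved by 0.27 without overlap, and CCND3 minus CCND2 by 0.22, also without overlap. Both gave p = 0.10 (exact permutation test, two-sided), the smallest possible here, with an adjusted p of 0.167. CCND3 stood above and CCND1 below every control value on each array labelled overexpression. The lack of overlap in CCND3 minus CCND1 was therefore bound to follow. Probes differ in brightness, so these values do not show which cyclin is more abundant. The permutation test cannot give a p under 0.10 with these arrays, so it cannot decide whether the changes of the D cyclins differ. By limma under the reported setting, the brightest probe set of CCND3 was called higher (95% interval 0.08 to 0.19). That of CCND1 was called lower (-0.19 to -0.08), so these intervals had opposite signs.

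MYC was lower in the arrays labelled overexpression. Its 1 probe set, 11745021_a_at, read 10, 10.02 and 9.97 on those arrays and 10.24, 10.10 and 10.22 on the arrays labelled control. The second control array was the lowest of its group and still above the other 3. The log2 fold change was -0.19 ± 0.0341 (SE), or 1.14-fold, in favour of the control label (limma, adjusted p = 0.0127). The call was lost without the first array labelled overexpression (limma, adjusted p = 0.0772) or the first control array (0.0955), and it was lowest, at 0.00204, without the second control array, where the log2 fold change was -0.23. With 1 probe set, no second reading of this gene was available.

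**Figure D3:**
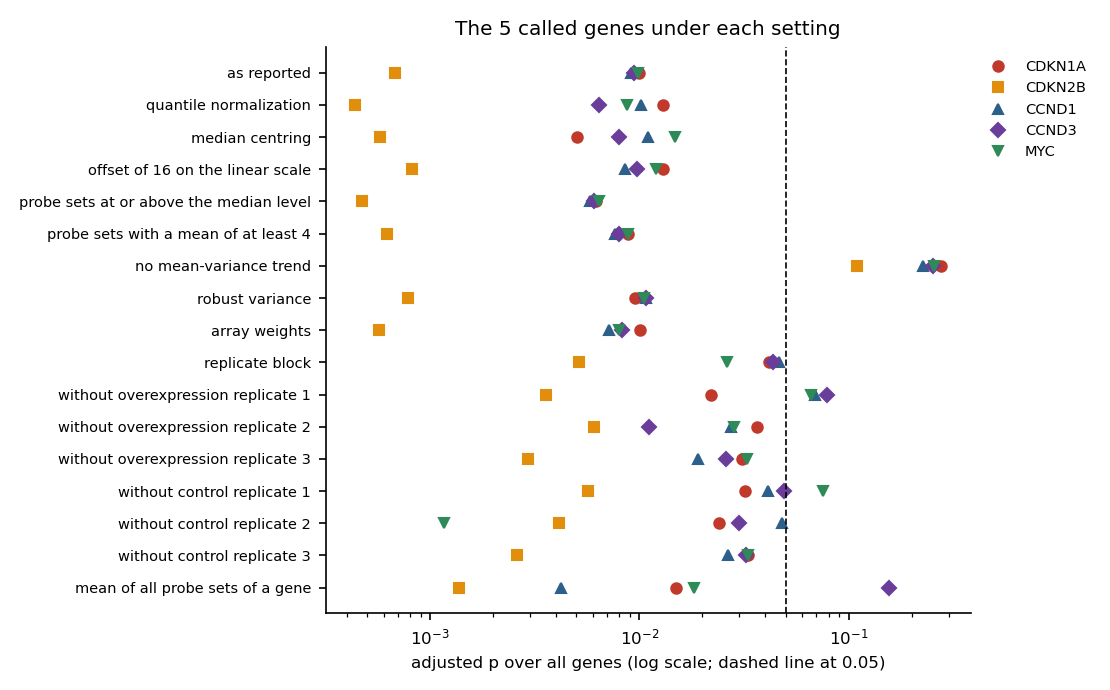
Adjusted p over all genes (limma, log scale, x axis) of the 5 called genes under the reported setting and each alternative (y axis), with a dashed line at 0.05. CDKN2B and CDKN1A stay left of the line in every setting but the one without a mean-variance trend, whereas CCND1, CCND3 and MYC also cross it without the first array labelled overexpression.

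The other genes of this pathway were read from 7 lists holding 114 distinct genes, 106 of them measured. The lists were drawn up with earlier results of these data known. Of the 106, 2 were called higher under the overexpression label and 11 lower, 12.3% against 2.16% of all 18132 genes (limma, adjusted over all genes). The median log2 fold change was -0.03, against 0.0085 over all genes. Of these 13, GSK3B, KLF4, MLX and MYBL2 were not called when p was adjusted over all probe sets instead (0.0584, 0.0636, 0.0553 and 0.0604). By the brightest probe set, none was called without the mean-variance trend, where adjusted p over all genes ran from 0.0895 to 0.339. There 21 of the 106 had an unadjusted p under 0.05, as did 11.5% of all genes. A dimmer ETV5 probe set, 11720352_at, was called without the trend (limma, adjusted p = 0.0371 over all probe sets).

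The kinases that the members bind or block were not called. The list of D and E cyclin kinases, which also holds cyclins and regulators of the kinases, had 12 genes. Of these 0 passed by limma, and the median was -0.02. An unadjusted p under 0.05 was found for 3, as for 13.9% of all genes. CDC25A, a phosphatase that activates CDK2, read -0.11 (limma, adjusted p = 0.122), and CCNE1, cyclin E1, read -0.08 (limma, adjusted p = 0.206). CDK4 read -0.04, CDK6 0.01 and CDK2 0.00.

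Further along the pathway, several E2F targets were lower under the overexpression label. Of 17 measured, 4 were called lower and 0 higher by limma, where 1.2% and 0.96% of all genes were. Called or not, 13 had a negative log2 fold change and 4 a positive one, with a median of -0.08. RRM2, a subunit of ribonucleotide reductase, fell by 0.18, and TK1, thymidine kinase, fell by 0.18 (limma, adjusted p = 0.00129 and 0.00159). MCM10, a replication initiation factor, fell by 0.20, and MYBL2, a cell cycle transcription factor, fell by 0.12 (limma, adjusted p = 0.0124 and 0.0456). The other TK1 probe set was called too, at -0.15 (limma, adjusted p = 0.0129). That of RRM2, at -0.09, was not (0.155), nor were the dimmer ones of MCM10, at -0.13 each (0.182 and 0.389). MCM10 lost its call without the first (limma, adjusted p = 0.0688) or second (0.0637) array labelled overexpression or the second control array (0.0582), and MYBL2 without any 1 of the 6. Of 16 genes of the RB family, E2F factors and their partners, E2F5, an E2F that acts with the RB relatives as a repressor, fell by 0.21 (limma, adjusted p = 0.00868; 0.0616 without the first array labelled overexpression). RB1 itself read -0.07 and E2F1 -0.09, neither called, and the list's median was -0.05.

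MYC targets showed a like picture. Of 18 measured, 3 were called lower and 0 higher by limma, beside the same 1.2% and 0.96% of all genes. Called or not, 15 had a negative log2 fold change and 3 a positive one, with a median of -0.05. FBL and NOP56, which modify ribosomal RNA in the nucleolus, fell by 0.13 each (limma, adjusted p = 0.0026 and 0.00654), and SHMT2, a mitochondrial enzyme of serine and folate metabolism, fell by 0.13 (limma, adjusted p = 0.0226). FBL was called in each fit with 1 array left out. NOP56 was called in all of these but that without the first array labelled overexpression (limma, adjusted p = 0.0614). SHMT2, by its brightest probe set, was called in the 1 without the third array labelled overexpression. On all 6 arrays its other probe sets were called too, at -0.15, -0.18 and -0.21 (limma, adjusted p = 0.0136, 0.0116 and 0.00259). Of the dimmer NOP56 probe sets, 11758679_s_at was called at -0.16 (0.00747), while those at -0.10 and -0.09 were not (0.0642 and 0.092). Among 14 partners and antagonists of MYC, MLX, a relative of MAX, fell by 0.11 from its brightest of 6 probe sets (limma, adjusted p = 0.0416). Its others ran from -0.06 to 0.02 with none called, the mean of all 6 gave -0.03 (0.616), and the call was lost in each fit with 1 array left out (0.0538 to 0.146). MAX read -0.03.

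Of 16 genes that turn over cyclins, CDK inhibitors and MYC, GSK3B, a kinase that marks cyclin D1 and MYC for destruction, was called higher at 0.11 (limma, adjusted p = 0.0435). It lost that call in each of the 6 fits with 1 array left out (limma, adjusted p 0.0737 to 0.162). The other GSK3B probe set, 11744456_s_at, gave 0.05 and overlapped between the groups (limma, adjusted p = 0.659). Of 19 regulators of transcription of the members, ETV5 fell by 0.35 and ETV4 by 0.22, both ETS factors downstream of ERK (limma, adjusted p = 0.000386 and 0.0254), and KLF4, an activator of CDKN1A, was called at 0.15 (limma, adjusted p = 0.0495). ETV5 stayed called when any 1 array was left out. ETV4 did not without the first (limma, adjusted p = 0.114) or second (0.0958) array labelled overexpression or the first (0.126) or the third (0.0643) control array, and KLF4 was called in 1 of these 6 fits. The second KLF4 probe set gave 0.13, overlapped and was not called (limma, adjusted p = 0.27). Of the dimmer ETV4 and ETV5 probe sets, only 11748612_a_at of ETV5 was not called, at -0.19 (limma, adjusted p = 0.168). The largest change among them was -0.51, for 11720352_at of ETV5 (limma, adjusted p = 0.000472, and 0.0371 without the mean-variance trend). MDM2, a p53 target, read 0.18 and was not called (limma, adjusted p = 0.208).

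**Figure D4:**
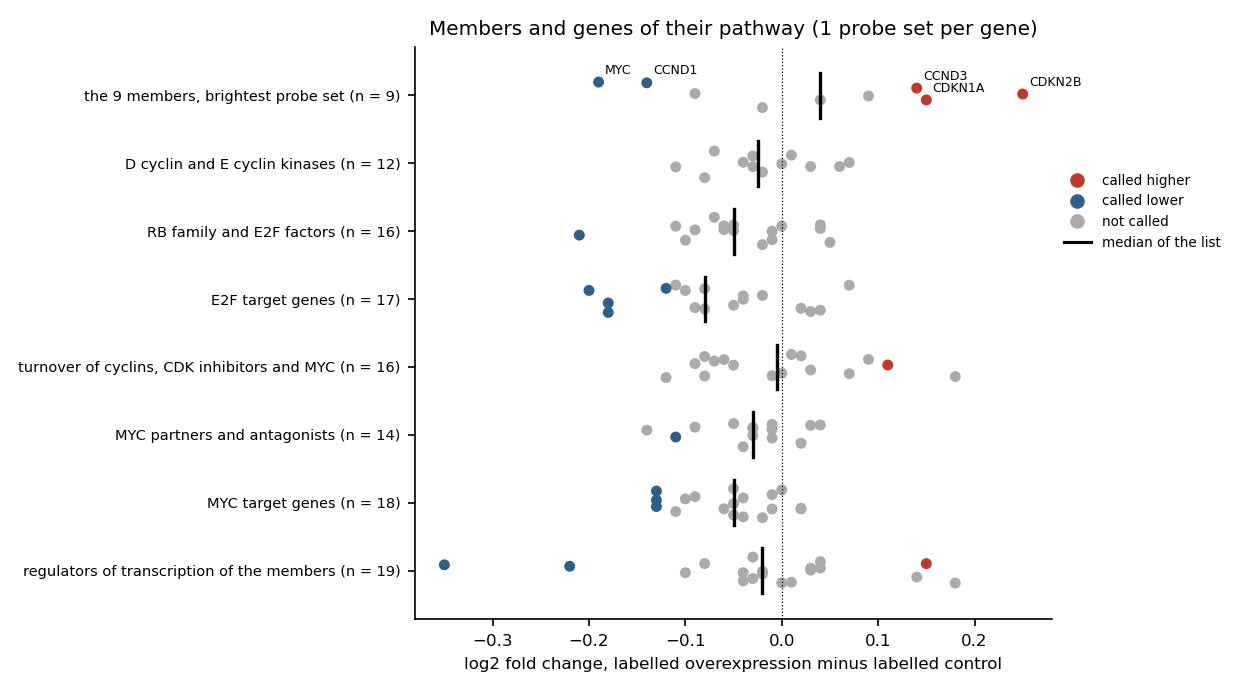
Log2 fold change (x axis, 1 probe set per gene) of the 9 members and of the genes in each of 7 pathway lists (y axis), with called genes in red (higher) or blue (lower), genes not called in grey and the median as a black bar. The members spread to both sides, from -0.19 for MYC to 0.25 for CDKN2B, while the called E2F and MYC targets lie on the lower side, between -0.12 and -0.20.

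The genes whose values most resembled the leading member in each direction were found over the 6 arrays, with 1 probe set per gene. For CDKN2B these were PAIP1 (Pearson r = 0.9968), HPGD (0.9948) and COL9A3 (0.9947), and 6 genes had an r above 0.99. For CCND1 they were GOLM1 (0.9982), LIPA (0.9978) and DTD1 (0.9976), and 10 genes had an r above 0.99. The 6 points form 2 groups, so such an r mainly restates the difference between the groups and is a description. PAIP1 rose by 0.10, while LIPA fell by 0.19 and GOLM1 by 0.16 in the arrays labelled overexpression (limma, adjusted p = 0.046, 0.000505 and 0.0162). HPGD, COL9A3 and DTD1, at 0.18, 0.13 and -0.09, were not called.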

How the data were processed

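Total RNA of 6 ES-2 samples was measured on PrimeView arrays. The deposited log2 values were credited to MAS5 per the submitters' processing notes, with no version or setting. The log base was inferred from the range and array medians. Array minima lay at 2.15 to 2.23 and the median within-group SD was 0.069, a low spread that is unlike usual MAS5 output, so the method of probe summary and scaling is unsettled. The genome build is not stated. Detection calls were not used here, and the number of arrays limits precision.

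The platform annotation gives 1 gene for 44988 of 49293 (102 array controls left out), several for 1832 and none for 2473. The gene number of 44961 matched RefSeq's table, which set the symbols. Values were used without further normalization or filter. Groups came from the titles. Limma 3.58.1 in R 4.3.3 (lmFit, a design with group alone, eBayes with trend = TRUE) was run on all probe sets, and again with 1 probe set per gene: the brightest, an _x_at type (which can match other transcripts) only where the gene has no other. P-values are two-sided and adjusted by Benjamini-Hochberg. Called means an adjusted p below 0.05. Differences are labelled overexpression minus labelled control. The fit was tested on simulated data. Pairs of genes, each a called member and a relative not called or called the other way, were compared by an exact permutation test (scipy 1.17.1). Figures used matplotlib 3.10.9.

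Members and lists were chosen with earlier results of these data known. Named are every member probe set, up to 4 called genes per list by lowest p (otherwise the 2 with the lowest p), CADM1, and the 3 genes most correlated with the leading called member in each direction. CDK2, CDK4, CDK6, RB1, E2F1, MAX, MDM2, the neighbours of CDKN2B and markers are further values. The alternatives were 2 normalizations, an offset of 16, 2 filters on dim probe sets, 2 variance models, array weights, a replicate block, each array left out in turn and the mean of all probe sets of a gene.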

Additional observations from a re-analysis of the deposited data

How the results depend on the processing

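No called member probe set changed direction under any alternative tried, and values not called changed sign in 4 cases, for CDKN2A and CCND2. Quantile normalization, median centring, the offset, both filters on dim probe sets, robust variance and array weights each left 9 of the 23 member probe sets called. Without a mean-variance trend limma called 17 probe sets in all, but 0 member probe sets, 0 member genes and 0 genes of the lists (genes by their brightest probe set). A dimmer probe set of the listed gene ETV5, 11720352_at, was called (limma, adjusted p = 0.0371). At an unadjusted p under 0.05 these counts were 11, 5 and 21, where 10.5% of all probe sets and 11.5% of all genes passed. With each array left out in turn, 241 to 692 probe sets were called in place of 735, 3 to 8 member probe sets in place of 9, 2 to 5 member genes in place of 5, and 4 to 11 genes of the lists in place of 13. The fewest came without the first array labelled overexpression, and the count of member probe sets was also 3 without the first control array. The titles number the arrays 1 to 3 in each group, but the correlations of same-numbered arrays' deviations were 0.113, -0.0828 and -0.0806, so the numbers were not taken to pair the arrays. With the replicate number as a block, 377 probe sets, 6 member probe sets, 5 member genes and 7 genes of the lists were called. The member probe sets not called under the block were 11715387_at of CDKN1A (0.0972), 11721255_at of CCND1 (0.0601) and 11754434_a_at of CCND3 (0.0546), all by limma's adjusted p. The cause of these changes was not tested.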
